A study of Sus scrofa with 6 samples.

Results

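Immediate-early and activity-regulated genes were examined in brain RNA of Rongchang pigs and wild boars. The set was a list of 48 symbols. Its selection rule uses no measured value, but the members were chosen with earlier results of these data known. Of the 48, 28 had a row among the 18225 genes of the deposited table once pig gene identifiers were paired with symbols. The 28 comprised 8 rapid transcription factors of the AP-1, EGR and NR4A families, 10 other induced factors, and 10 delayed or feedback genes (5 synaptic or secreted effectors and 5 feedback or stress regulators). These groups follow the role of each product, and no timing of induction was measured. The other 20, FOSB, FOSL2, JUN, JUND, EGR4, NR4A1, ARC, CREM, KLF2, KLF6, RGS2, INHBA, DUSP5, DUSP6, ZFP36, BTG2, SIK1, TRIB1, GADD45A and GADD45G, are not analysed here.

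The groups were 3 Rongchang pigs, a domesticated Chinese breed, and 3 wild boars, all 210 days old, with 1 library of polyadenylated RNA per animal. The tissue is given as brain, with no region, and no treatment is named, so the values describe the brain as collected and not a response to a stimulus. The sources used here do not say how the animals were handled or how soon after death the tissue was taken. The series title speaks of immune differences between domesticated and wild animals; the induced genes were not its stated question.

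Immediate-early genes are transcribed within minutes of a signal, from preformed factors such as CREB and the serum response factor SRF, without new protein synthesis. In neurons, calcium entry through NMDA receptors and voltage-gated channels drives this step through calmodulin-dependent kinases and the MAP kinase cascade. The first products are mainly transcription factors, which act on delayed genes. Phosphatases and RNA-binding proteins made in the same wave shut the signal down. The same genes respond to stress, injury and hypoxia in glia and vessels, and their RNAs are short-lived.

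Values are FPKM, fragment numbers corrected for transcript length and for the fragments mapped in a library, which allows levels to be compared between genes, and are given in the order of animals 1, 2 and 3. Sequencing depth is unknown for such values, so no counting interval can be given. SNAP25, SYT1 and SLC17A7, markers of neurons, averaged 241.9 to 988 FPKM over the 2 breeds, whereas CBLN3 and GABRA6, markers of cerebellum, lay under 1 FPKM. The summed level of 4 cortical markers (TBR1, FEZF2, CUX2 and RORB) was 41.03, 65.7 and 46.9 FPKM in Rongchang and 36.1, 70.04 and 47.9 in wild boar. The libraries numbered 2 thus held the most cortical marker RNA in both breeds, and they also held the least blood RNA, at 68.8 and 59.4 FPKM against 139.9 to 276.8 in the other 4 (HBB the most abundant of 4 genes). The sums of 5 astrocyte genes (946.7 to 1216 FPKM, GFAP the most abundant), 5 striatal genes (29.9 to 40.5, PPP1R1B), 6 mural and meningeal genes (41.2 to 69.1, TAGLN) and 5 hypothalamic, thalamic or hindbrain genes (2.48 to 8.66, TCF7L2) overlapped between the breeds. The striatal sum includes PENK, also listed below among later activity-regulated genes, with means of 7.43 FPKM in Rongchang and 12.6 in wild boar. The other striatal genes each had a lower mean in wild boar, such as PPP1R1B at 24.1 and 19.8 FPKM. In the astrocyte and mural lists, ALDH1L1 lay lower and PDGFRB higher in every wild boar, and the other genes overlapped. The sum of 4 hippocampal genes, mostly FAM163B, did not overlap (Rongchang 49.8 to 53.9 FPKM, wild boar 37.9 to 43.2). Of these genes, FAM163B and C1QL2 lay lower in every wild boar, whereas PROX1 and ZBTB20 overlapped. ZBTB20 went the other way, its mean rising from 0.867 FPKM for Rongchang to 1.46 for wild boar. Mitochondrially encoded genes took 30.0% to 46.8% of the FPKM of a library. In bulk tissue, a change in the number of cells of a type and a change in RNA per cell cannot be told apart.

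The induced genes were present at low to moderate levels in every library. Their mean over the 6 libraries ran from 0.605 FPKM for KLF10 to 31.3 for the kinase PLK2, with a median of 4.38. Among genes that passed the filter on low values, the median was 5.08 FPKM for the 25 induced genes and 7.09 for all 13152. In 10 of the 28 the mean reached 10 FPKM: the rapid factors EGR1, FOSL1, JUNB, EGR3 and NR4A2, the factor SRF, the effectors PLK2, HOMER1 and NPTX2, and the phosphatase DUSP1. NPAS4, ATF3 and KLF10 failed the filter of 1 FPKM in 3 of the 6 libraries, which left 25 genes tested. The spread between the highest and the lowest library of a gene ranged from 1.19-fold for SRF to 9.0-fold for IER3, with a median of 1.87-fold over the 25, against 1.70-fold over all genes tested.

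**Figure D1:**
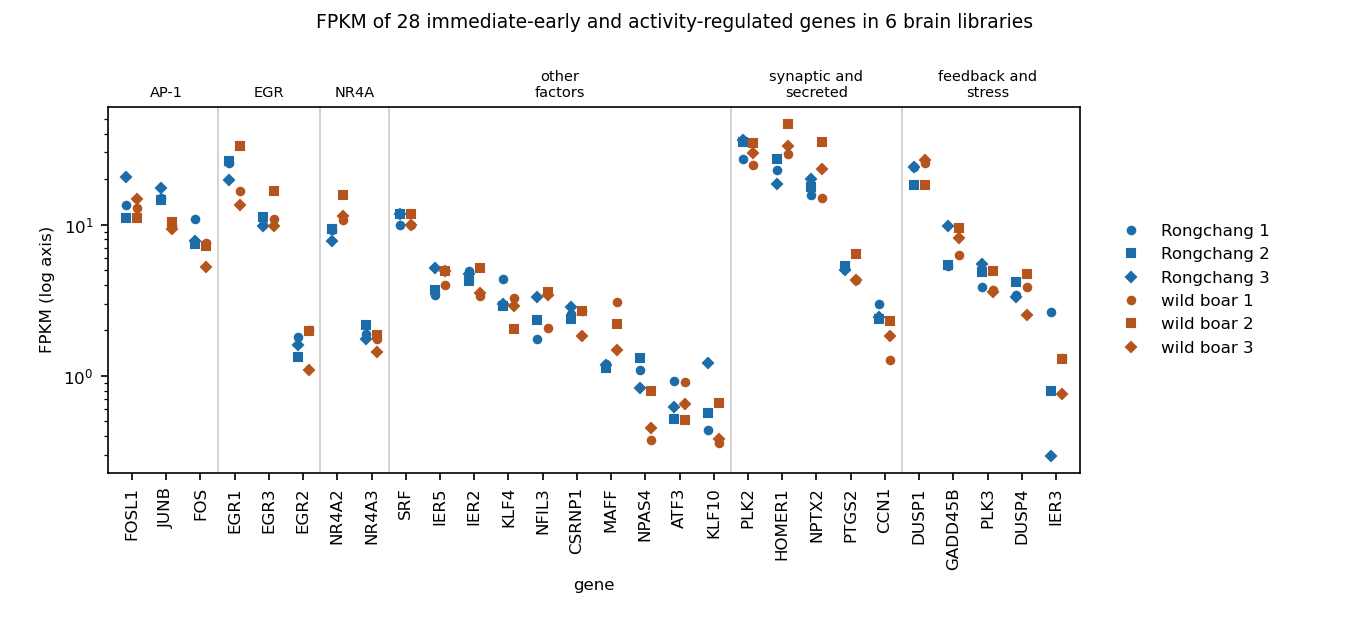
FPKM (log axis) of the 28 genes with a row in each of the 6 libraries, blue for Rongchang and orange for wild boar, with the symbol giving the animal number. HOMER1, NR4A2 and MAFF lie higher in all 3 wild boars than in all 3 Rongchang pigs, and JUNB, CCN1 and NPAS4 lie lower.

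Between the breeds, none of the 25 genes passed the threshold of 0.05 on the adjusted p (limma, 0 genes called, smallest adjusted p = 0.724), where 0% of all genes tested were called higher and 0.0076% lower in wild boar. At an unadjusted p under 0.05, 3 of the 25 lay higher in wild boar (HOMER1, MAFF and NR4A2) and 1 lower (JUNB), against 0.578% of all genes higher and 5.42% lower. The breeds did not overlap for 5 of the 25, 3 of them higher (12%, against 1.12% of all genes) and 2 lower (8.0%, against 11.4%). Of the 25, 12 had a fold change above 0 and 13 below, while 77.9% of all genes lay below 0. The median fold change was −0.05, and the median of all genes was −0.13 (wild boar minus Rongchang, log2(FPKM + 1), a scale that understates changes of low genes).

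Because most genes lay slightly lower in wild boar, the comparison was repeated with libraries scaled to one common median. All genes then centred on a fold change of 0.02, with 1.89% of genes higher and 1.87% lower at an unadjusted p under 0.05, and with no overlap between the breeds for 5.03% of genes on the higher side and 3.87% on the lower. The same HOMER1, MAFF and NR4A2 on the higher side and JUNB on the lower remained under an unadjusted p of 0.05. None of the 25 was called (limma, smallest adjusted p = 0.9999, against 0.724 without the scaling). With this scaling the breeds did not overlap for HOMER1, NR4A2, MAFF and EGR3, which lay higher, and for JUNB, which lay lower. CCN1 then overlapped.

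Same-numbered libraries of the breeds varied together, so the comparison was also made with the animal number as a replicate block. The labels name no pairing. The block was chosen from these same data, so smaller p-values with it are no separate support. At an unadjusted p under 0.05, HOMER1, NR4A2 and MAFF then lay higher and JUNB and FOS lower, against 1.41% of all genes higher and 16% lower (limma, smallest adjusted p of the 25 genes = 0.228, 0 called). With the block and median scaling together, 8 of the 25 lay higher (HOMER1, NR4A2, MAFF, EGR3, NPTX2, NFIL3, IER5 and DUSP1) and JUNB lower, against 5.47% of all genes higher and 5.02% lower (smallest adjusted p = 0.338).

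**Figure D2:**
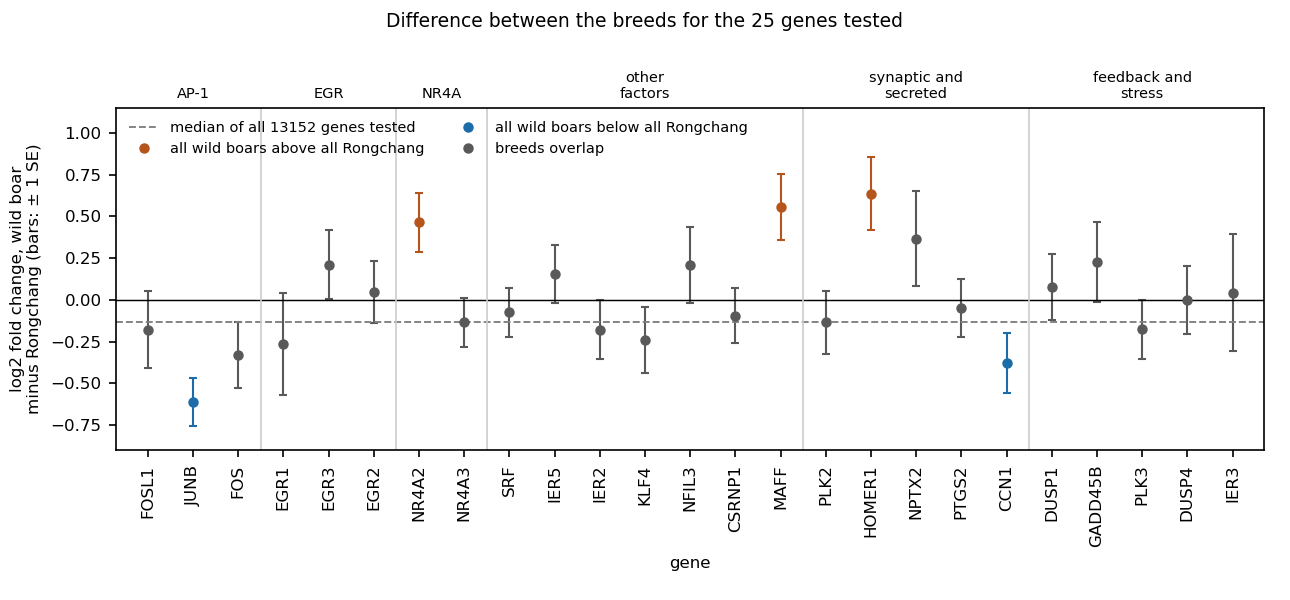
Log2 fold change, wild boar minus Rongchang, of the 25 genes tested, with bars of 1 standard error from limma and colours for genes whose breeds do not overlap. On this scale the extremes are 0.64 for HOMER1 and −0.61 for JUNB, and the dashed line marks the median of all genes tested at −0.13.

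Among the rapid factors, the AP-1 members with a row all lay below 0 in wild boar, by more than the median gene. FOS, FOSL1 and JUNB encode subunits that pair through leucine zippers and bind AP-1 sites. JUNB, a Jun subunit that often restrains other AP-1 dimers, was at 14.9, 14.5 and 17.6 FPKM in Rongchang and 9.75, 10.5 and 9.38 in wild boar. The 3 wild boars lay close together and all under the lowest Rongchang pig. The means were 15.7 ± 1.66 and 9.86 ± 0.546 (SD, n = 3 each), a ratio of 0.63 and a log2 fold change of −0.61 (SE 0.14, adjusted p = 0.724).

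FOS, the classical marker of recent neuronal activity, was at 10.9, 7.39 and 7.79 FPKM in Rongchang and 7.61, 7.27 and 5.21 in wild boar. Rongchang 1 was the highest and wild boar 3 the lowest, and the other 4 libraries lay between 7.27 and 7.79, so the breeds overlapped (log2 fold change −0.33, SE 0.20, adjusted p = 0.811). FOS was lower in the wild boar of each same-numbered pair, though the labels name no pairing. With the animal number as a replicate block its standard error was 0.13 (limma adjusted p = 0.287). With the block and median scaling together, its fold change was −0.18 (SE 0.12, limma adjusted p = 0.614). With neither, the fold change was −0.17 without Rongchang 1 and −0.18 without wild boar 3. FOSL1, which encodes the Fos relative Fra-1, was at 13.4, 11.1 and 20.7 FPKM in Rongchang and 12.9, 11.01 and 14.7 in wild boar, above FOS in each library. That ranking depends on the annotation used, which the sources do not give. The FOSL1 difference of −0.18 (SE 0.23, adjusted p = 0.886) rested on Rongchang 3, without which it was 0.06.

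The EGR factors are zinc-finger proteins that bind GC-rich sites in promoters of synaptic genes. EGR1, the most abundant rapid factor, was at 25.5, 26.5 and 19.9 FPKM in Rongchang and 16.8, 33.0 and 13.5 in wild boar. Wild boar 2 was the highest of the 6 libraries, and the other wild boars were below every Rongchang pig. The breed difference was therefore small against its error (−0.26, SE 0.31, adjusted p = 0.874). It was −0.62 without wild boar 2 (SE 0.19, adjusted p = 0.480) and −0.01 without wild boar 3.

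EGR3, a target of EGR1 signalling needed for muscle spindles and memory, was at 9.98, 11.3 and 9.85 FPKM in Rongchang and 10.9, 16.7 and 9.75 in wild boar (0.21, SE 0.21, adjusted p = 0.863). Again wild boar 2 stood alone at the top, and without it the difference was −0.01. EGR2, known for its role in myelinating Schwann cells, was low, at 1.58 ± 0.241 and 1.69 ± 0.515 FPKM (SD, n = 3 each), with a difference of 0.05 (SE 0.19).

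The NR4A members are orphan nuclear receptors that act without a ligand. NR4A2, also called Nurr1, is required by midbrain dopamine neurons and is induced by activity in cortex and hippocampus. It was at 9.22, 9.32 and 7.75 FPKM in Rongchang and 10.8, 15.6 and 11.4 in wild boar, with no overlap and wild boar 2 again the highest. The means were 8.76 ± 0.881 and 12.6 ± 2.62 (SD, n = 3 each), a ratio of 1.44 and a log2 fold change of 0.47 (SE 0.18, adjusted p = 0.789). Without wild boar 2 it was 0.31. NR4A3 was at 1.90, 2.16 and 1.76 FPKM in Rongchang and 1.76, 1.85 and 1.44 in wild boar, overlapping between the breeds (−0.13, SE 0.15, adjusted p = 0.873), which is the value of the median gene.

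The 8 rapid factors had a median fold change of −0.16, or −0.02 relative to the median gene, with 3 above 0 and 5 below. Within them, NR4A2 and JUNB lay on opposite sides with no overlap in either. Wild boar 3 was the lowest library for 6 of the 8 (FOS, JUNB, EGR1, EGR2, EGR3 and NR4A3), and it was the lowest for 22.7% of all genes tested. The median deviation of the 8 from each gene's mean over the 6 libraries was −0.26 log2 units in wild boar 3, and between −0.03 and 0.10 in the other 5. In wild boar 3 the summed level of the 4 choroid plexus and ependyma genes with a row was 35.2 FPKM, almost all of it TTR, against 1.32 to 4.14 in the other libraries. Its part in the low values was not tested.

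Among the other induced factors, MAFF stood apart. MAFF is a small Maf protein that lacks an activation domain and pairs with other leucine-zipper factors. It was at 1.19, 1.12 and 1.17 FPKM in Rongchang and 3.06, 2.19 and 1.47 in wild boar, so the Rongchang pigs were nearly equal and all wild boars lay above them. The ratio of the means, 1.16 ± 0.0370 and 2.24 ± 0.795 (SD, n = 3 each), was 1.93, the highest ratio of wild boar over Rongchang among the 28 genes. The Rongchang values lay just above the filter of 1 FPKM, and their counting error is unknown. The log2 fold change was 0.56 (SE 0.20, adjusted p = 0.789). It was 0.38 without wild boar 1, whose value is the highest.

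NPAS4, a neuron-restricted factor induced by calcium entry alone, was the counterpart on the lower side, though too low to enter the test. It was at 1.09, 1.31 and 0.829 FPKM in Rongchang and 0.374, 0.797 and 0.449 in wild boar, with no overlap although the nearest values were 0.797 and 0.829. The ratio of the means was 0.50. With no filter on low values its log2 fold change was −0.43 (SE 0.14, adjusted p = 0.803). It is outside the rule for genes described by library and was picked with its values in view.

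SRF, the factor that switches on many of these promoters and is itself weakly induced, was at 9.95, 11.8 and 11.7 FPKM in Rongchang and 9.96, 11.7 and 9.94 in wild boar. Its values varied least of all 28 genes. The difference was −0.08 (SE 0.15, adjusted p = 0.919) and changed sign to 0.08 after median scaling. KLF4, a zinc-finger factor of endothelium and stem cells, was at 4.40, 2.90 and 2.98 FPKM in Rongchang and 3.28, 2.04 and 2.92 in wild boar (−0.24, SE 0.20, adjusted p = 0.857). IER5, which binds the heat-shock factor HSF1, was at 3.42, 3.72 and 5.16 FPKM and at 4.01, 4.91 and 4.96 (0.15, SE 0.17, adjusted p = 0.874). Both overlapped between the breeds.

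The remaining induced factors also overlapped. NFIL3, a repressor of clock and immune genes, averaged 2.48 ± 0.801 FPKM in Rongchang and 3.02 ± 0.829 in wild boar (SD, n = 3 each), and IER2 averaged 4.62 ± 0.377 and 4.02 ± 1.01. CSRNP1 averaged 2.61 ± 0.248 and 2.40 ± 0.492. Differences of these 3 ran from −0.18 for IER2 to 0.21 for NFIL3. ATF3, a stress-induced repressor, stayed under 1 FPKM in all libraries (0.688 ± 0.216 and 0.693 ± 0.202), and KLF10, induced by TGF-beta, exceeded it only in Rongchang 3 at 1.22. The 7 factors tested in this group had a median fold change of −0.08, with 3 above 0 and 4 below.

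Among the synaptic effectors, HOMER1 separated the breeds. HOMER1 encodes a postsynaptic scaffold that links metabotropic glutamate receptors to internal calcium stores, and neuronal activity induces a short form of it that uncouples them. It was at 22.8, 27.0 and 18.6 FPKM in Rongchang and 29.4, 46.5 and 33.0 in wild boar. The lowest wild boar exceeded the highest Rongchang pig, and in each breed animal 2 was the highest. The means were 22.8 ± 4.19 and 36.3 ± 8.99 (SD, n = 3 each), a ratio of 1.59 and a log2 fold change of 0.64 (SE 0.22, adjusted p = 0.789). The fold change was 0.45 without wild boar 2 and 0.57 without both libraries numbered 2. The value is one per gene, so the short and the long forms cannot be told apart.

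NPTX2, or Narp, is a secreted pentraxin that gathers AMPA receptors at synapses on interneurons. It was at 15.6, 17.6 and 20.1 FPKM in Rongchang and 15.0, 35.2 and 23.2 in wild boar, so wild boar 1 was the lowest and wild boar 2 the highest of the 6. The difference of 0.37 (SE 0.28, adjusted p = 0.849) became 0.07 without wild boar 2. NPTX2, too, was picked with its values in view. PLK2, a kinase that scales synapses down after sustained activity and the most abundant gene of the set, was at 27.3, 35.1 and 36.1 FPKM in Rongchang and 24.9, 34.8 and 29.7 in wild boar. It overlapped (−0.14, SE 0.19, adjusted p = 0.887), at the value of the median gene.

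CCN1, or CYR61, is a matrix protein of vessels and fibroblasts induced through SRF and YAP. It was at 2.97, 2.38 and 2.45 FPKM in Rongchang and 1.27, 2.30 and 1.82 in wild boar. The breeds did not overlap, but wild boar 2 lay just below the lowest Rongchang pig. The ratio of the means was 0.69 and the log2 fold change −0.38 (SE 0.18, adjusted p = 0.789), or −0.23 without wild boar 1. PTGS2, the inducible cyclooxygenase that forebrain neurons express at rest, averaged 5.14 ± 0.154 and 5.01 ± 1.23 FPKM (SD, n = 3 each), with a difference of −0.05 (SE 0.17). The 4 endothelial markers with a row summed to 21.2 to 28.1 FPKM in Rongchang and 29.2 to 32.7 in wild boar. Each marker alone overlapped between the breeds. Their part in the values of CCN1 and KLF4 was not tested.

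The feedback and stress genes showed no separation of the breeds. DUSP1, a nuclear phosphatase that inactivates MAP kinases, was at 24.0, 18.2 and 24.0 FPKM in Rongchang and 25.5, 18.2 and 26.6 in wild boar. The libraries numbered 2 were the lowest of each breed and nearly equal (difference 0.08, SE 0.20, adjusted p = 0.940). GADD45B, which takes part in DNA repair and demethylation, was at 5.32, 5.43 and 9.72 FPKM in Rongchang and 6.33, 9.45 and 8.12 in wild boar (0.23, SE 0.24, adjusted p = 0.871). PLK3, a stress kinase, was at 3.84, 4.88 and 5.49 FPKM and at 3.70, 4.91 and 3.59 (−0.18, SE 0.18, adjusted p = 0.863).

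DUSP4, another MAP kinase phosphatase, averaged 3.62 ± 0.464 and 3.71 ± 1.12 FPKM (SD, n = 3 each), with a difference near 0 (SE 0.20). IER3, an NF-kappaB target that modulates cell survival, was the most variable gene of the set and ranged from 0.296 FPKM in Rongchang 3 to 2.66 in Rongchang 1. Its difference of 0.04 had the largest standard error of the 25 genes (0.35). The group's median fold change was 0.04, or 0.17 relative to the median gene, with 4 of 5 genes above it. It lay between −0.05 and −0.02 when Rongchang 2, Rongchang 3, wild boar 1 or wild boar 2 was left out, so its sign rests on single libraries.

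Set side by side, the 10 delayed and feedback genes had a median fold change of 0.02 and the 8 rapid factors −0.16, against −0.13 over all genes. With 1 library left out, the first ran from −0.09 (without wild boar 2) to 0.10 (without wild boar 3), and was also below 0 without Rongchang 2, Rongchang 3 or wild boar 1. The second ran from −0.16 to −0.04 (without wild boar 3), and was −0.06 without Rongchang 3. The delayed and feedback genes split into 6 above 0 and 4 below, with HOMER1 highest and CCN1 lowest. This difference between the groups was not tested, since the members were chosen by name. The groups were set by role, so it is not a contrast of induction times. It also varied by library: the median deviation of the delayed and feedback genes was −0.11, −0.01 and 0.04 log2 units in Rongchang and −0.17, 0.23 and −0.11 in wild boar, and that of the rapid factors was 0.08, −0.01 and −0.01 in Rongchang and −0.03, 0.10 and −0.26 in wild boar. Wild boar 2 had the highest value in both groups.

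**Figure D3:**
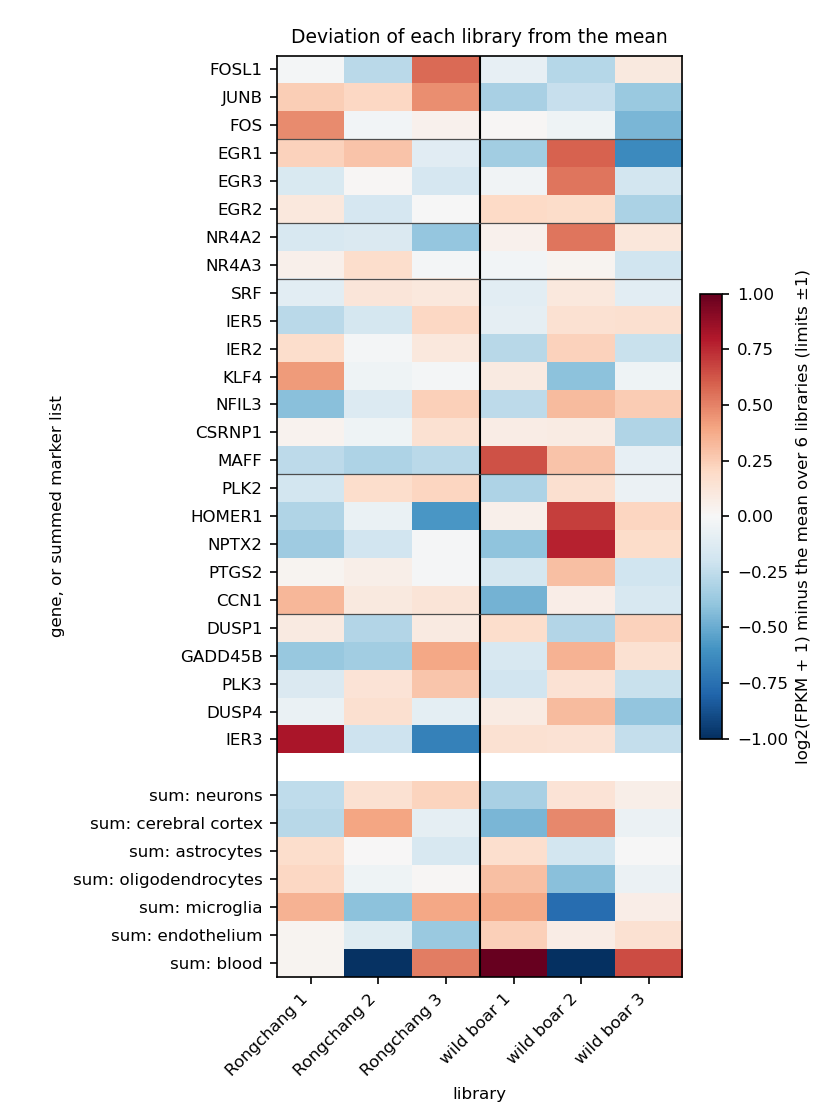
Deviation of log2(FPKM + 1) in each library from the mean over the 6 libraries, for the 25 genes tested (upper rows, by role) and for the summed FPKM of marker lists (lower rows); colours are limited to ±1, which the blood sum exceeds. Wild boar 2 is strongly red for EGR1, EGR3, NR4A2, HOMER1 and NPTX2 and red for the cortical sum, while Rongchang 2 is red for the cortical sum as well.

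Wild boar 2 was the highest of the 6 libraries for 9 of the 25 genes (36.0%), and for 16.5% of all genes tested. The genes it led were EGR1, EGR3, NR4A2, HOMER1, NPTX2, PTGS2, NFIL3, IER2 and DUSP4. Its cortical marker sum was the highest of all, its oligodendrocyte sum the lowest (1230 FPKM against 1575 to 2027 in the others) and its microglial sum the lowest (37.6 against 48.2 to 84.4). Rongchang 2 had the second highest cortical marker sum, and its EGR1 was at 26.5, its HOMER1 at 27.0 and its NPTX2 at 17.6 FPKM, where wild boar 2 had 33.0, 46.5 and 35.2. The part of tissue makeup in these values was not tested.

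Without wild boar 2, 8 of the 25 genes lay above 0 and 17 below, while 75.5% of all genes lay below. At an unadjusted p under 0.05, MAFF lay higher and JUNB, EGR1 and CCN1 lower (limma, smallest adjusted p = 0.480), against 0.798% of all genes higher and 9.28% lower. Without both libraries numbered 2, HOMER1 lay higher and JUNB, EGR1, IER2 and CCN1 lower at that level, against 0.836% of all genes higher and 8.11% lower. Again 8 of the 25 lay above 0, and 77.5% of all genes lay below. JUNB kept an unadjusted p under 0.05 in both of these fits and with any other single library left out, while HOMER1, NR4A2 and MAFF each missed it in at least 1 of those fits. The adjusted p of JUNB in them ran from 0.480 to 0.982 (limma). JUNB had the smallest p of the 25 to begin with and the fits share libraries, so this is no separate support. Wild boar 3 was the lowest library for 11 of the 25 genes (44.0%).

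**Figure D4:**
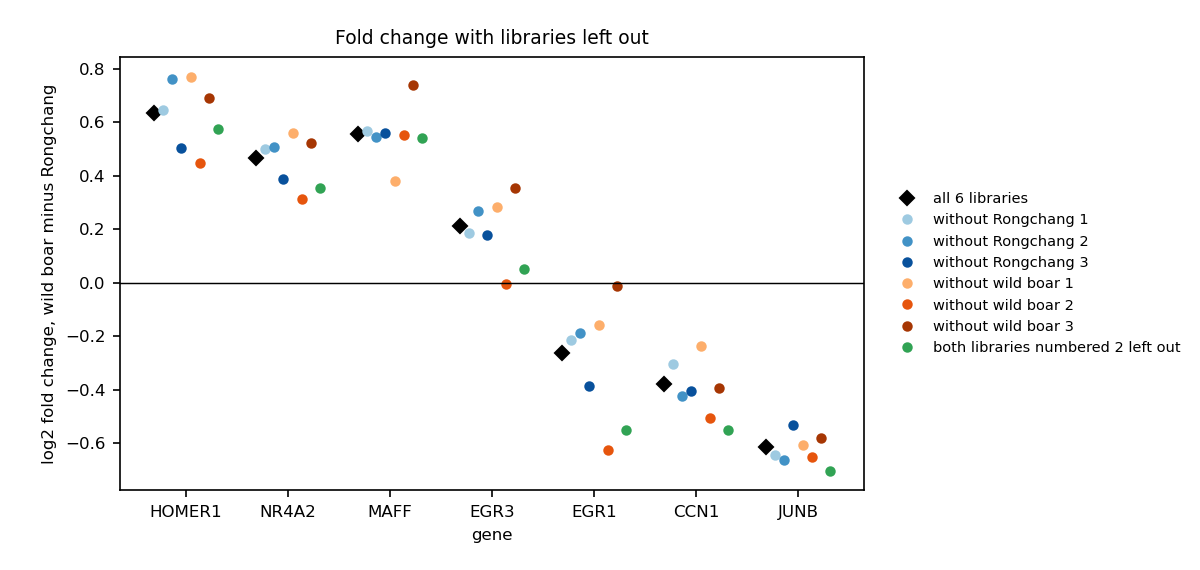
Log2 fold change, wild boar minus Rongchang, of 7 genes with all 6 libraries (black diamonds), with each library left out in turn and with both libraries numbered 2 left out. HOMER1, NR4A2 and MAFF stay above 0 and JUNB and CCN1 below in these fits, while EGR3 reaches −0.01 and EGR1 spans −0.62 to −0.01.

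Genes that carry the signal to these promoters were read beside them. Of the 30 tested from a list of 41 receptors, kinases, coactivators and factors, 8 had a fold change above 0 and 22 under it. Of all genes tested, 77.9% lay below 0. The median of the list was −0.03, against −0.13 for all genes, with 0 called. At an unadjusted p under 0.05 (limma), 1 lay lower and 0 higher, against 5.42% and 0.578% of all genes. The breeds did not overlap for MEF2C and MAP2K2, both lower (6.67% of the 30, against 11.4% of all genes). MEF2C, an activity-dependent factor of excitatory neurons, was at 77.9, 114.5 and 81.3 FPKM in Rongchang and 52.0, 71.5 and 54.2 in wild boar, with no overlap (−0.61, adjusted p = 0.789). ATF1, a relative of CREB, was at 4.19, 6.31 and 4.60 FPKM in Rongchang and 3.49, 4.14 and 4.32 in wild boar, and overlapped (−0.26, adjusted p = 0.835). The part of tissue makeup, such as the hippocampal sum, lower in wild boar mainly through FAM163B and C1QL2, was not tested. The neuronal marker sum overlapped, at 1714 to 2383 FPKM in Rongchang and 1631 to 2252 in wild boar.

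Later activity-regulated genes went both ways. Of 8 tested from 14 listed, 5 had a fold change above 0 and 3 under it (median 0.16), with 0 called. At an unadjusted p under 0.05 (limma), 2 lay higher and 1 lower, against 0.578% and 5.42% of all genes. The neurotrophin BDNF was at 3.82, 4.18 and 3.83 FPKM in Rongchang and 5.37, 6.83 and 6.13 in wild boar, and the opioid precursor PENK was at 6.91, 6.01 and 9.37 and at 15.5, 11.2 and 10.98. DUSP14, a MAP kinase phosphatase, was the gene on the lower side, at 14.5, 19.2 and 23.0 and at 13.9, 11.4 and 14.3. In these 3 genes the breeds did not overlap. BDNF and PENK made up 25% of the 8, against 1.12% of all genes on the higher side. DUSP14 made up 12.5%, near the 11.4% of all genes on the lower side.

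Genes that respond to stress of the tissue were measured beside them. All 10 heat-shock genes tested lay above the median gene, between −0.13 and 0.12, with 0 called (limma; 0 at an unadjusted p under 0.05), and the smallest p belonged to BAG3 (−0.13) and DNAJB1 (0.12). Of 9 hypoxia-induced genes tested, 2 lay above 0 and 7 below (median −0.15, 0 called, 0 at an unadjusted p under 0.05). This is near the values of all genes, with 77.9% below 0 and a median of −0.13. The smallest p in this list belonged to the oxygen sensor EGLN3 (−0.48) and the kinase PDK1 (−0.47). Of 7 glucocorticoid-induced genes, 4 lay above 0 and 3 below (median 0.01, 0 called, 0 at an unadjusted p under 0.05). The kinase SGK1 was at 17.0, 18.4 and 21.1 FPKM in Rongchang and 22.7, 23.9 and 25.5 in wild boar, without overlap (0.34, adjusted p = 0.789). That is 14.3% of the 7, against 1.12% of all genes higher without overlap. NFKBIA, the inhibitor of NF-kappaB, averaged 12.1 ± 4.33 and 15.4 ± 4.201 FPKM (SD, n = 3 each) and overlapped (0.34, adjusted p = 0.856). Whether handling or the time to collection moved the induced genes was not tested.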

How the data were processed

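The deposited table holds 1 FPKM value per gene and library. Per the submitters' processing notes, the authors used TopHat2 2.0.11, Cufflinks 2.2.1 and also Cuffdiff, with no role stated. The unit was judged from these tools and from the values, since the header names none. The sources used here give no genome build, annotation or strand setting of the counting (the libraries mark strand with dUTP, per the labels' protocols). Coordinates are therefore left out, and reads of a gene and an overlapping antisense gene cannot be told apart. Depth is unknown. Members were matched through a table of identifiers and symbols, taking the identifier of highest mean where a symbol had several, and 10937 of 18225 identifiers had a symbol.

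Wild boar was compared with Rongchang in limma 3.58.1 (R 4.3.3), two-sided, with a mean-variance trend, on log2(FPKM + 1). Genes had to reach 1 FPKM in 3 or more of the 6 libraries. Adjustment (Benjamini-Hochberg, threshold 0.05) ran over all 13152 such genes. The procedure was tested on simulated data with independent noise in each library. The simulation held neither the shared variation of same-numbered libraries nor the slightly lower level of most genes in wild boar. It therefore does not show what size of change these data could detect. Nothing states that the animals came from separate litters or farms, and the p-values cover only the variation among these 6 libraries.

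The members and lists were chosen with earlier results of these data known. Values in each library are given for the 2 most abundant members of each role, the 2 with the smallest p, and tested members whose breeds do not overlap. Of each pathway list, the 2 genes with the smallest p are named. A pair of listed genes are not reported here and were left out of their lists.

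To check pairing, each library's deviations from its breed's mean were correlated over the genes tested. Libraries of the same number reached 0.283, 0.587 and 0.368, above the bound of 0.1, so the numbers were taken to pair them. This rests on the data alone, and Rongchang 1 with wild boar 3 also lay above the bound (0.125). Alternatives were other pseudocounts, filters, scalings and variance models, the replicate block, and libraries left out.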

Additional observations from a re-analysis of the deposited data

How the results depend on the processing

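Over 18 alternatives no member was called. Among them, summing the identifiers of a symbol could not change a member, since each member had 1 identifier. Of the 25 members tested, these log2 fold changes changed sign. Median scaling, with or without the replicate block, turned SRF to 0.084, PLK2 to 0.033, PTGS2 to 0.094 and CSRNP1 to 0.028, and quantile normalization turned them to 0.071, 0.0031, 0.089 and 0.046. Pseudocounts of 0.1 and 0.5 turned DUSP4 to −0.0061 and −0.0018. With 1 library left out, FOSL1 ran from −0.36 to 0.058, EGR3 from −0.0055 to 0.35, EGR2 from −0.044 to 0.22, DUSP1 from −0.052 to 0.24, DUSP4 from −0.16 to 0.20, IER3 from −0.29 to 0.46, PTGS2 from −0.21 to 0.036 and CSRNP1 from −0.16 to 0.032. Without both libraries numbered 2, GADD45B was at −0.0091, EGR2 at −0.11, DUSP4 at −0.074 and IER3 at −0.11.

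With median scaling, with or without the block, the median was 0.094 for all members, −0.020 for rapid factors and 0.084 for other induced factors. With quantile normalization it was 0.089 for all members, 0.071 for other induced factors and 0.22 for feedback genes. Both scalings centre all genes near 0. With 1 library left out, the median of all members ran from −0.096 (without wild boar 2) to 0.032 (without wild boar 3), and that of synaptic and secreted effectors from −0.21 to 0.036, without the same libraries.

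Genes called over the whole table numbered 1, and 3 with a pseudocount of 0.1, 0 with 1 FPKM required in all 6 libraries (limma; 57 higher and 636 lower at an unadjusted p under 0.05), 3 without both libraries numbered 2, and 1 to 4 with 1 library left out. The replicate block, with the animal number as the pair, called 1 gene and 0 members, and gave 185 genes higher and 2104 lower at an unadjusted p under 0.05, against 76 and 713 without it. With the block the adjusted p was 0.228 for JUNB and HOMER1, 0.232 for NR4A2 and 0.243 for MAFF. The cause of these changes was not tested. Values under about 1 FPKM, such as those of NPAS4, carry an unknown counting error.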
